A study of Mus musculus with 6 samples.

Results

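The 40 genes described here act in DNA replication and S phase, and all 40 passed the filter on low counts, out of 54146 gene identifiers counted. They were taken by name, with earlier results of these data known, and set apart by role. The roles were 6 licensing genes, 12 helicase genes, 6 polymerase and primase genes, and 7 clamp, single-strand-binding and Okazaki fragment genes. The rest were 4 nucleotide supply genes, 3 chromatin assembly and histone mRNA genes, and the pair Ung and Dtl. RNA was sequenced from 2 clones of mouse NIH/3T3 cells with the genotype Mki67-/-, in which the gene for Ki-67, a nuclear antigen of dividing cells, is knocked out, and from wild-type (WT) NIH/3T3 cells. NIH/3T3 is an immortal fibroblast line from Swiss albino mouse embryos. Each clone and the WT had 2 libraries, all cells were grown in medium with 10% foetal bovine serum, and each knockout line is a clone, so that what sets a clone apart and what the knockout does cannot be told apart within a clone. Whether replicates are separate cultures is not stated in the labels; where they are not, the p-values cover only a technical spread between libraries.

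Replication is prepared in G1, when the origin recognition complex, Cdc6 and Cdt1 load the ring-shaped Mcm2-7 helicase onto origins, a step called licensing. In S phase the helicase is switched on by Cdc45 and the GINS complex, polymerase alpha with its primase lays down primers, and polymerases delta and epsilon extend them on the PCNA clamp. Many of these genes are known targets of E2F transcription factors and are transcribed at the G1/S border.

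The libraries held between 3873249 gene counts (WT replicate 1) and 19678782 (clone 1 replicate 1). Mki67 had 4.24 and 4.58 CPM (reads of the gene relative to the TMM-scaled total of its library) in clone 1 and 4.32 and 7.69 CPM in clone 2, against 49.1 and 55.1 CPM in WT, so that every library matched its label. Fibroblast markers were high, with Col1a2 at 1290 to 2156 CPM and Vim at 3351 to 5393 CPM over the 6 libraries. The epithelial markers Epcam, Krt8, Krt18 and Cdh1 lay between 0 and 0.543 CPM, although the protocol text names the epithelial tumour line 4T1. The muscle filament gene Des, a marker of another cell type, lay between 10.7 and 21 CPM in the knockout libraries, against 6.51 and 7.66 CPM in WT, while Myod1 had 0 counts in every library. The endothelial marker Cdh5 lay lower, between 0.753 and 1.48 CPM in the knockout libraries, against 3.53 and 4.23 CPM in WT, with Pecam1 at 0.247 to 0.555 CPM over all 6. Among fibroblast markers, Thy1 lay between 87.3 and 131 CPM in the knockout libraries, against 215 CPM in each WT library. Col1a1 lay between 501 and 640 CPM, against 287 and 368 CPM. Vim lay between 3351 and 3750 CPM in the knockout libraries, against 5331 and 5393 CPM in WT. Col1a2 and Pdgfrb (76.4 to 114 CPM over the 6 libraries) overlapped between knockout and WT. The part of these differences in the results was not tested.

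The question put by setting knockout beside WT is which replication transcripts differ when Ki-67 is lost. Averaged over the clones, 11 of the 40 genes rose and 3 fell, at a Benjamini-Hochberg adjusted p below 0.05 in edgeR's quasi-likelihood test over all genes. Those that rose were Pola1, Dtl, Gins1, Tk1, Mcm10, Gins3, Rrm2, Pcna, Pole, Prim2 and Rrm1, and those that fell were Cdt1, Pold1 and Gmnn. The p-values rest on the spread between libraries within a group, not on that between clones, of which there are 2. The 14 called genes are 35.0% of the list, and 34.8% of all 13120 genes tested were called, so the share called was that of the background. By direction, 27.5% of the list rose beside 16.6% of all genes, and 7.5% fell beside 18.2% of all genes. Changes were small: the median log2 fold change was 0.15 (0.005 over all genes), the median size regardless of sign was 0.27 (0.34 over all genes), and Pola1 alone, 2.5% of the list, changed at least 2-fold, beside 11.2% of all genes. Over the 40 genes, WT replicate 1 lay above WT replicate 2 by a median of 0.19 on the log2 scale. The median change of the list was thus smaller than the gap between the WT libraries. A larger share of cells in S phase and more RNA per S-phase cell cannot be told apart in such bulk samples.

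In clone 1 against WT, 8 genes rose and 3 fell (27.5% of the list, beside 31.7% of all genes, of which 15.2% rose and 16.5% fell). In clone 2 against WT, 5 rose and 1 fell (15% of the list, beside 27.4% of all genes, of which 12.9% rose and 14.5% fell). These comparisons share the WT libraries. The split of the calls depended on scaling: by library totals alone, 16 rose and 2 fell in the knockout mean, and 15 rose and 2 fell in clone 1. With that scaling the background moved too, to 19.8% higher and 14.9% lower of all genes in the knockout mean, and 17.6% and 13.5% in clone 1. Leaving out clone 2 replicate 1 brought the rises in the knockout mean to 5 (12.5% of the list, beside 11.3% of all genes), so that the list's share of rises then lay near the background. Leaving out replicate 1 or 2 of clone 2 brought the rises in clone 2 to 2, beside 5.53% and 7.05% of all genes. Without clone 1 replicate 2, 0 genes fell in clone 1, beside 9.35% of all genes. In clone 2, 0 fell without its replicate 1 (6.7% of all genes) and 3 without WT replicate 2 (13.1% of all genes).

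**Figure D1:**
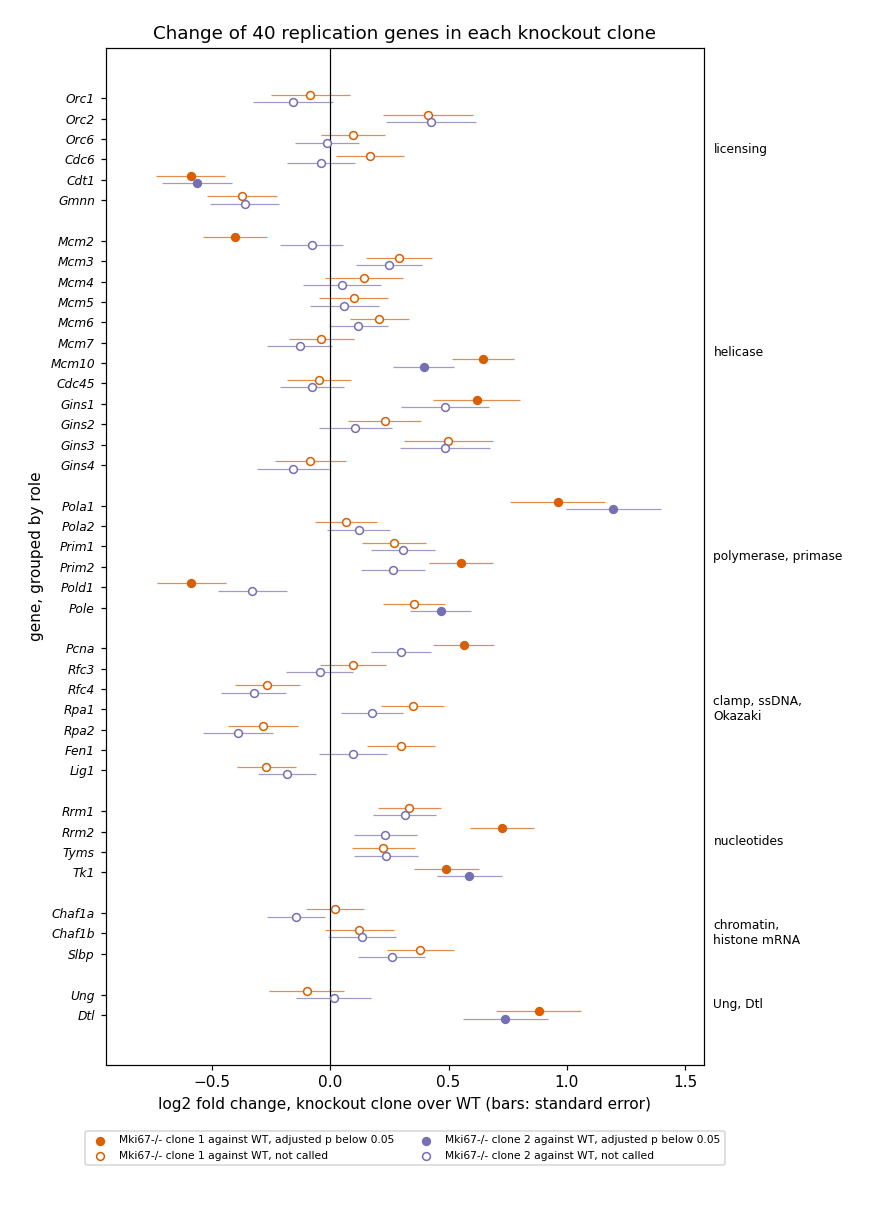
Log2 fold change of each of the 40 genes in clone 1 (orange) and clone 2 (violet) over WT, grouped by role, with standard error bars and filled points for adjusted p below 0.05. Pola1, Dtl, Mcm10 and Tk1 are filled to the right of 0 and Cdt1 to the left of 0 in each clone, and most other points lie within 0.5 of 0.

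Without regard to a test, all 4 knockout libraries lay above both WT libraries for 18 of the 40 genes (45.0%, beside 25.1% of all genes) and below both for 6 (15%, beside 24.7%). The groups overlapped for the other 16 genes. The summed level of the 40 genes was 5419 and 4991 CPM in clone 1 beside 5009 and 4953 CPM in clone 2, against 4916 and 4331 CPM in WT. The WT libraries differed more from each other in this sum than the clone 2 libraries did.

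In the knockout mean, 0 of the 6 licensing genes rose and 2 fell (0% and 33.3%, beside 16.6% and 18.2% of all genes). The 2 were Cdt1 and Gmnn. Cdt1, the loading factor that brings Mcm2-7 to origins (chromosome 8, 122568015 to 122573554, GRCm38, plus strand), had 68.6 and 63 CPM in clone 1 beside 58.7 and 75.6 CPM in clone 2, against 107 and 92.7 CPM in WT. All 4 knockout libraries lay below both WT libraries. The annotation places the long gene Gm20388 over Cdt1 on the same strand, so that reads in exons of both may be missing from the Cdt1 counts. Cdt1 fell by 0.59 ± 0.15 (SE) on the log2 scale in clone 1 (adjusted p = 0.00798) and by 0.56 ± 0.15 in clone 2 (adjusted p = 0.0122), and by 0.58 ± 0.13 in their mean (adjusted p = 0.00319). The call was lost in clone 1 without its replicate 2 (−0.54, adjusted p = 0.0743) and in clone 2 without its replicate 1 (−0.40, adjusted p = 0.195). Correction for GC content and length brought the mean to −0.32 (adjusted p = 0.0232) and clone 2 to −0.28 (adjusted p = 0.0817).

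Gmnn encodes geminin, the inhibitor that binds Cdt1 after origins have fired. It had 31.1 and 27.4 CPM in clone 1 beside 29.0 and 30.0 CPM in clone 2, against 38.5 and 37.5 CPM in WT, again with no overlap between groups. It fell by 0.37 ± 0.13 in the knockout mean (adjusted p = 0.0380) and missed the threshold in each clone by itself (adjusted p = 0.0670 and 0.0822). The call in the mean was kept without clone 1 replicate 1 and lost without any other library, with −0.39 to −0.33 (adjusted p = 0.0832 to 0.114). It was also lost with DESeq2 (−0.38, adjusted p = 0.0585), with scaling by library totals (−0.29, adjusted p = 0.0802) and with every gene kept whatever its counts (−0.32, adjusted p = 0.131).

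The other licensing genes were not called. Cdc6, the ATPase that works with the origin recognition complex, had 85.8 and 78.7 CPM in clone 1 beside 73.3 and 69.4 CPM in clone 2, against 83.6 and 64.8 CPM in WT, where the WT libraries spanned most of the knockout values. Its log2 fold change was 0.06 ± 0.13 in the mean, with −0.12 without WT replicate 2 and 0.24 without WT replicate 1. The origin recognition genes Orc1, Orc2 and Orc6 had log2 fold changes of −0.12 ± 0.15, 0.42 ± 0.17 (adjusted p = 0.0694) and 0.04 ± 0.12.

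Of the 12 helicase genes, 3 rose and 0 fell in the knockout mean (25.0% and 0%, beside 16.6% and 18.2% of all genes). Their median log2 fold change was 0.13. The 3 were Mcm10, which helps to activate the loaded helicase, and Gins1 and Gins3, subunits of the GINS complex. Mcm10 (chromosome 2, 4989714 to 5012791, minus strand) had 107 and 97.3 CPM in clone 1 beside 91.0 and 80.3 CPM in clone 2, against 65.4 and 65.0 CPM in WT. Both WT libraries lay below every knockout library, with clone 1 above clone 2. Mcm10 rose by 0.65 ± 0.13 in clone 1 (adjusted p = 0.00214), by 0.39 ± 0.13 in clone 2 (adjusted p = 0.0374) and by 0.52 ± 0.12 in the mean (adjusted p = 0.00357). The call in clone 2 was lost without WT replicate 2, either clone 1 library or either clone 2 library, at 0.29 to 0.47 (adjusted p = 0.0599 to 0.345). It was also lost with DESeq2 (0.38, adjusted p = 0.0577) and with all libraries thinned to the depth of the shallowest (0.37, adjusted p = 0.0770).

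Gins1 had 22.3 and 22.7 CPM in clone 1 beside 21.6 and 19.4 CPM in clone 2, against 17.9 and 12.7 CPM in WT. It rose by 0.55 ± 0.17 in the mean (adjusted p = 0.0206) and by 0.62 ± 0.18 in clone 1 (adjusted p = 0.0205). The WT libraries lay far apart, and without WT replicate 2 the values were 0.27 in the mean (adjusted p = 0.378) and 0.34 in clone 1 (adjusted p = 0.284). The call in the mean was also lost without clone 2 replicate 1 (0.50, adjusted p = 0.0771) and in thinned libraries (0.37, adjusted p = 0.131), and that in clone 1 without its replicate 2 (0.60, adjusted p = 0.0751) and in thinned libraries (0.56, adjusted p = 0.0508). Gins3 had 14.5 and 13.2 CPM in clone 1 beside 14.4 and 13.2 CPM in clone 2, against 8.68 and 10.45 CPM in WT, a rise of 0.49 ± 0.17 in the mean (adjusted p = 0.0378). The call ended when replicate 1 of WT, replicate 1 of clone 1 or any library of clone 2 was left out, at 0.40 to 0.52 (adjusted p = 0.0621 to 0.134). It was also not called with DESeq2 (0.49, adjusted p = 0.0871), limma-voom (0.48, adjusted p = 0.0513) or thinned libraries (0.38, adjusted p = 0.211). Gins2 and Gins4, the remaining GINS subunits, had 0.17 ± 0.14 and −0.12 ± 0.13, and were not called, nor was Cdc45 (−0.06 ± 0.12), which joins GINS in the active helicase. At Gins2, 21.2% of the reads of both strands lay on the opposite strand, where the annotation places Gse1 and Gm20388.

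The 6 genes of the Mcm2-7 ring were not called in the knockout mean, with values from −0.24 ± 0.12 for Mcm2 to 0.27 ± 0.12 for Mcm3. Mcm2 had 217 and 194 CPM in clone 1 beside 261 and 254 CPM in clone 2, against 299 and 247 CPM in WT. Its clone 1 libraries lay below all others, and its clone 2 libraries lay between the WT libraries. It fell by 0.40 ± 0.13 in clone 1 (adjusted p = 0.0338), and had −0.08 ± 0.13 in clone 2. The call in clone 1 held without WT replicate 2 and was lost in the other 5 fits that left out a library, at −0.49 to −0.27 (adjusted p = 0.0697 to 0.247). It was also lost with scaling by library totals (−0.32, adjusted p = 0.0596), with every gene kept whatever its counts (−0.34, adjusted p = 0.0527), and once GC content and length were corrected for (−0.29, adjusted p = 0.0545).

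Within the ring, subunits were compared as CPM per kb of mRNA. Mcm6 had the highest mean level, 133 in clone 1 and 125 in clone 2 against 115 CPM per kb in WT, and Mcm4 the lowest, 32.5 and 30.5 against 29.1 CPM per kb. Mcm2 made up 11.7% and 11.6% of the summed level per kb of the 6 subunits in clone 1 and 14.9% and 14.7% in clone 2, against 16.7% and 15.9% in WT. Mcm3 made up 23.0% and 22.4% in clone 1 and 22.5% and 22.1% in clone 2, against 20.2% and 18.8% in WT. For both subunits the knockout and WT shares did not overlap. Nor did those of Mcm7, at 15.9% to 17.4% in the knockout libraries against 18.5% and 17.9% in WT. Such a lack of overlap is common: in CPM, 25.1% of all genes tested had every knockout library above WT, and 24.7% below. The subunit shares use only counts within a library, so that scaling between libraries does not enter them. No test was run on the shares. Mcm4 shares ranged from 5.38% to 7.18% in the knockout libraries and were 4.53% and 7.41% in WT, so that the WT libraries enclosed them. Mcm7 (−0.08 ± 0.12) holds the microRNA genes Mir25, Mir93 and Mir106b on its own strand.

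**Figure D2:**
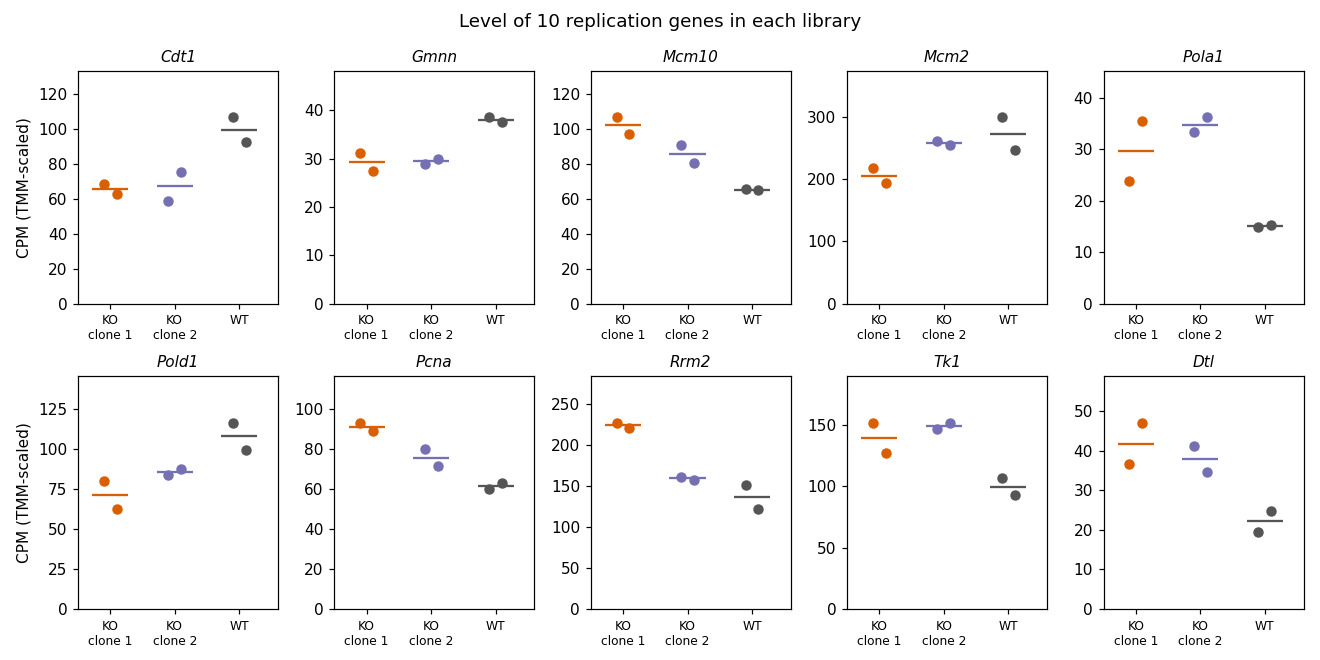
Level of 10 genes in CPM (vertical axes, from 0) in each library of clone 1, clone 2 and WT, with points for libraries and lines for the mean of 2. Cdt1, Gmnn and Pold1 have all knockout points below the WT points, Mcm10, Pola1, Pcna, Rrm2, Tk1 and Dtl all above, and Mcm2 overlaps.

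Of the 6 polymerase and primase genes, 3 rose and 1 fell. Pola1, the catalytic subunit of polymerase alpha (chromosome X, 93304767 to 93632155, minus strand), had the largest change of the 40 genes. It had 23.8 and 35.5 CPM in clone 1 beside 33.4 and 36.2 CPM in clone 2, against 14.9 and 15.3 CPM in WT. Every knockout library lay above both WT libraries, clone 1 replicate 1 being the lowest of the 4. Pola1 rose by 0.96 ± 0.20 in clone 1 (adjusted p = 0.00261), by 1.2 ± 0.20 in clone 2 (adjusted p = 7.07e-04) and by 1.08 ± 0.18 in the mean (adjusted p = 5.31e-04). Over 17 alternatives its mean ranged from 0.73 to 1.23 and stayed called.

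Pola2, which encodes the accessory subunit of the same enzyme, had 123 and 113 CPM in clone 1 beside 117 and 127 CPM in clone 2, against 122 and 104 CPM in WT, and was not called (0.09 ± 0.12). Pola1 counts per Pola2 count were 0.194 and 0.314 in clone 1 and 0.285 and 0.284 in clone 2, against 0.123 and 0.147 in WT. The groups did not overlap in this ratio, and its log2 difference was 0.98. The exact permutation test over the 15 ways to choose 2 of 6 libraries gave p = 0.0667 (two-sided), the smallest it can give here, so that no such ratio could reach 0.05. It was computed for 10 ratios chosen after their values were seen, over which the adjusted p was 0.167.

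Of the primase genes, Prim2 rose and Prim1 did not pass the test. Prim2, the large subunit, had 82.2 and 70.6 CPM in clone 1 beside 62.9 and 62.5 CPM in clone 2, against 54.8 and 50 CPM in WT, and rose by 0.41 ± 0.12 in the mean (adjusted p = 0.0176) and by 0.55 ± 0.14 in clone 1 (adjusted p = 0.00720). The call in the mean was lost when replicate 2 of WT, replicate 1 of clone 1 or any library of clone 2 was left out, at 0.34 to 0.40 (adjusted p = 0.0588 to 0.102), and when the 4 knockout libraries were fitted as a single group (0.42, adjusted p = 0.0535). In clone 1 it was lost without its replicate 1 (0.44, adjusted p = 0.0718). Correction for GC content and length brought Prim2 to 0.15 in the mean (adjusted p = 0.385) and 0.33 in clone 1 (adjusted p = 0.106). Prim1, the catalytic primase subunit, had 53.0 and 48.0 CPM in clone 1 beside 52.4 and 51.4 CPM in clone 2, against 40.7 and 42.8 CPM in WT, and did not pass (0.29 ± 0.12, adjusted p = 0.0774). Prim2 counts per Prim1 count overlapped between groups, at 1.201 to 1.55 in the knockout libraries and 1.17 to 1.35 in WT.

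The catalytic subunits of the 2 main replicative polymerases moved in opposite directions. Pole, of the leading-strand polymerase epsilon, had 142 and 134 CPM in clone 1 beside 157 and 142 CPM in clone 2, against 101 and 114 CPM in WT. It rose by 0.41 ± 0.11 in the mean (adjusted p = 0.0135) and by 0.47 ± 0.13 in clone 2 (adjusted p = 0.0167), and missed the threshold in clone 1 (adjusted p = 0.0511). Both Pole calls were lost without WT replicate 1 (0.33 and 0.39, adjusted p = 0.0686 and 0.0534) and without clone 2 replicate 1 (0.37 and 0.38, adjusted p = 0.0714 and 0.192), and that in clone 2 also without its replicate 2 (0.53, adjusted p = 0.0607).

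Pold1, of the lagging-strand polymerase delta, had 80.2 and 62.4 CPM in clone 1 beside 83.5 and 87.2 CPM in clone 2, against 116 and 99.4 CPM in WT, and no knockout library reached the lower WT library. It fell by 0.46 ± 0.13 in the mean (adjusted p = 0.0117) and by 0.59 ± 0.15 in clone 1 (adjusted p = 0.00777). Without clone 1 replicate 2 the value in clone 1 was −0.43 (adjusted p = 0.114). Pold1 has the highest GC content of the 40 genes, 61.0%, and correction for GC content and length brought the mean to −0.14 (adjusted p = 0.268) and clone 1 to −0.28 (adjusted p = 0.0586). Pold1 counts per Pole count were 0.565 and 0.465 in clone 1 and 0.532 and 0.614 in clone 2, against 1.15 and 0.871 in WT, with a log2 difference of −0.89 (exact permutation p = 0.0667, adjusted p = 0.167 over the 10 ratios).

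Of the 7 clamp, single-strand-binding and Okazaki fragment genes, Pcna rose and 0 fell (14.3% and 0%, beside 16.6% and 18.2% of all genes). Pcna encodes the sliding clamp that holds polymerases on DNA. It had 93.2 and 88.8 CPM in clone 1 beside 79.8 and 71.7 CPM in clone 2, against 60.0 and 62.9 CPM in WT, with clone 1 above clone 2 and clone 2 above WT. It rose by 0.43 ± 0.11 in the mean (adjusted p = 0.00995) and by 0.56 ± 0.13 in clone 1 (adjusted p = 0.00466), and had 0.30 ± 0.13 in clone 2 (adjusted p = 0.100). The call in the mean was lost without clone 2 replicate 1 (0.39, adjusted p = 0.0611), and correction for GC content and length brought it to 0.26 (adjusted p = 0.0363). The annotation holds 2 pseudogenes named for Pcna; reads that match several places are left out of the counts, so its level rests on its unique parts.

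The other 6 were not called in the mean, and their directions differed. Rpa1, the large subunit of the single-strand-binding protein RPA, had 665 and 618 CPM in clone 1 beside 559 and 580 CPM in clone 2, against 537 and 472 CPM in WT (0.26 ± 0.12, adjusted p = 0.0943). Rpa2, its middle subunit, had 53.3 and 48.7 CPM in clone 1 beside 45.1 and 49.6 CPM in clone 2, against 70.3 and 55.5 CPM in WT (−0.34 ± 0.13, adjusted p = 0.0546). Thus RPA subunits lay on opposite sides of WT in every knockout library, without passing the test. The clamp loader subunit Rfc4 also lay below WT in every knockout library (−0.29 ± 0.12, adjusted p = 0.0669), as did the DNA ligase gene Lig1 (−0.23 ± 0.11, adjusted p = 0.113). Rfc3, another clamp loader subunit, had 0.03 ± 0.12, and the flap endonuclease gene Fen1 had 0.20 ± 0.13.

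Of the 4 nucleotide supply genes, 3 rose and 0 fell, beside 16.6% and 18.2% of all genes, with a median log2 fold change of 0.40. Their summed level was 1011 and 931 CPM in clone 1 beside 916 and 904 CPM in clone 2, against 791 and 661 CPM in WT. The 9 further nucleotide supply genes tested did not share this direction. Of these, 3 rose and 2 fell, 6 lay below 0, and the median was −0.08. Tk1, the cytosolic thymidine kinase of the salvage route (chromosome 11, 117815526 to 117826092, minus strand), had 151 and 127 CPM in clone 1 beside 146 and 152 CPM in clone 2, against 107 and 92.7 CPM in WT. It rose by 0.49 ± 0.14 in clone 1 (adjusted p = 0.0152), by 0.59 ± 0.14 in clone 2 (adjusted p = 0.00654) and by 0.54 ± 0.12 in the mean (adjusted p = 0.00397). Its call in clone 1 was lost without its replicate 1 (0.36, adjusted p = 0.149) or WT replicate 2 (0.39, adjusted p = 0.0561), and in clone 2 without its replicate 2 (0.55, adjusted p = 0.0633).

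Rrm2, the small subunit of ribonucleotide reductase, which makes deoxynucleotides, had 227 and 220 CPM in clone 1 beside 161 and 158 CPM in clone 2, against 151 and 121 CPM in WT. The clone 1 libraries stood well above the rest, and clone 2 lay close to WT replicate 1. Rrm2 rose by 0.72 ± 0.14 in clone 1 (adjusted p = 0.00125) and by 0.48 ± 0.12 in the mean (adjusted p = 0.00712), and had 0.23 ± 0.14 in clone 2 (adjusted p = 0.220). The call in the mean was lost without WT replicate 2 (0.33, adjusted p = 0.0771) and with the knockout libraries as a single group (0.50, adjusted p = 0.0633).

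Rrm1, the large reductase subunit, had 524 and 483 CPM in clone 1 beside 504 and 489 CPM in clone 2, against 434 and 366 CPM in WT, and rose by 0.32 ± 0.12 in the mean (adjusted p = 0.0458). That call was kept without WT replicate 1 and lost without any other library, with 0.21 to 0.34 (adjusted p = 0.0912 to 0.264). It was also lost once GC content and length were corrected for (0.01, adjusted p = 0.959), with the knockout libraries as a single group (0.32, adjusted p = 0.0661) and in thinned libraries (0.32, adjusted p = 0.0517). Tyms, the thymidylate synthase gene, for which 1 pseudogene is named, had 0.23 ± 0.12 (adjusted p = 0.149). Tk1 counts per Tyms count were 1.40 and 1.26 in clone 1 and 1.39 and 1.45 in clone 2, against 1.07 and 1.15 in WT (log2 difference 0.31, exact permutation p = 0.0667, adjusted p = 0.167 over the 10 ratios).

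The 3 chromatin assembly and histone mRNA genes were not called. The CAF-1 subunit genes Chaf1a and Chaf1b, whose products place histones behind the fork, had −0.06 ± 0.11 and 0.13 ± 0.13. Slbp, the stem-loop binding protein of replication-dependent histone mRNAs, had 64.9 and 67.6 CPM in clone 1 beside 66.6 and 55.2 CPM in clone 2, against 47.5 and 53.5 CPM in WT, and did not pass (0.32 ± 0.13, adjusted p = 0.0612).

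Dtl encodes the substrate receptor of the ubiquitin ligase CRL4-Cdt2, which marks Cdt1 for degradation at PCNA in S phase. Dtl (chromosome 1, 191537356 to 191575544, minus strand) had 36.5 and 47.1 CPM in clone 1 beside 41.1 and 34.6 CPM in clone 2, against 19.5 and 24.8 CPM in WT, with no overlap. It rose by 0.88 ± 0.18 in clone 1 (adjusted p = 0.00232), by 0.74 ± 0.18 in clone 2 (adjusted p = 0.00823) and by 0.81 ± 0.16 in the mean (adjusted p = 0.00177). Correction for GC content and length brought the mean to 0.41 (adjusted p = 0.0168) and clone 2 to 0.30 (adjusted p = 0.0981), and the call in clone 2 was also lost without its replicate 1 (0.61, adjusted p = 0.0937) and in thinned libraries (0.43, adjusted p = 0.125). Ung, the uracil-DNA glycosylase gene, had 28 and 27.6 CPM in clone 1 beside 29.5 and 30.6 CPM in clone 2, against 33.9 and 26.8 CPM in WT. The WT libraries enclosed every knockout value (−0.04 ± 0.14), and the sign of the difference turned with scaling by library totals (0.035), without a low-count filter (0.0063) and without WT replicate 1 (0.11).

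Between clone 2 and clone 1, 0 of the 40 genes were called in the main edgeR fit, and 4 had an unadjusted p below 0.05. Of all genes, 3.54% were called there (1.18% higher and 2.36% lower). The largest difference was that of Rrm2, −0.49 ± 0.13 (adjusted p = 0.0600). Rrm2 was called by DESeq2 and limma-voom, by each as the only gene of the 40. It was also called by edgeR without a low-count filter, with correction for GC content and length, and with the replicate block. The median difference regardless of sign was 0.10, against 0.17 over all genes.

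**Figure D3:**
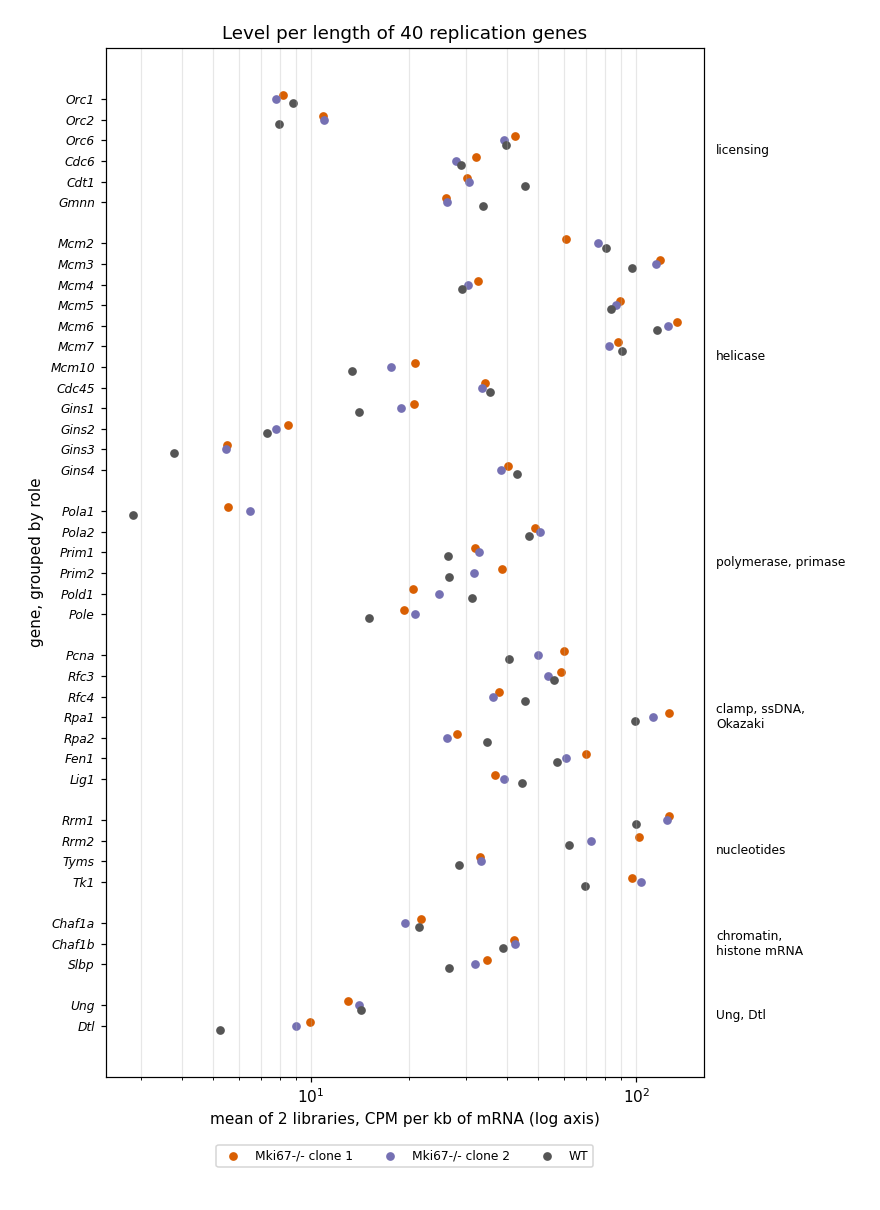
Mean of 2 libraries for each of the 40 genes in CPM per kb of mRNA (log axis), in clone 1, clone 2 and WT, grouped by role. Mcm3, Mcm6, Rpa1 and Rrm1 lie near or above 100 in each group, and Pola1 is lowest in WT at 2.83.

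As levels per kb of mRNA, the 40 genes spanned from 2.83 CPM per kb for Pola1 to 115 CPM per kb for Mcm6 in WT. Pola1 had 5.54 in clone 1 and 6.51 in clone 2, where Gins3, at 5.50 and 5.46 CPM per kb, was the lowest of the 40, against 3.80 CPM per kb in WT. The highest genes after Mcm6 in WT were Rrm1 (100.1), Rpa1 (99.3) and Mcm3 (97.1), which differed among each other by less than the WT libraries did. Within the polymerase alpha complex in WT, Pola2 had 46.7, Prim2 26.5 and Prim1 26.4 CPM per kb, and Pola1 lay well below its partners in all 3 groups.

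Change and GC content moved together across the list. Over the 40 genes the log2 fold change of the knockout mean and the GC content of the longest transcript had a Pearson correlation of −0.59 and a Spearman correlation of −0.49, and over 13114 genes tested −0.22 and −0.38. These are descriptions across genes that share the same 6 libraries. The median GC content was 46.0% for the 11 genes that rose, 57.8% for the 3 that fell and 49.0% for the 26 not called. Dtl and Pola1, the largest rises, have 41.4% and 41.5%, and Cdt1 and Pold1 have 57.8% and 61.0%. After the correction for GC content and length, 13 genes were called higher and 3 lower, beside 17.8% higher and 17.8% lower of all genes. The calls of Prim2, Rrm1 and Pold1 were lost, and Mcm3, Gins2, Rpa1 and Fen1 were newly called higher and Rfc4 lower. Tk1, which was at 0.68 after that correction (adjusted p = 2.64e-04), and Mcm10, at 0.55 (adjusted p = 0.00109), were as large as before it.

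**Figure D4:**
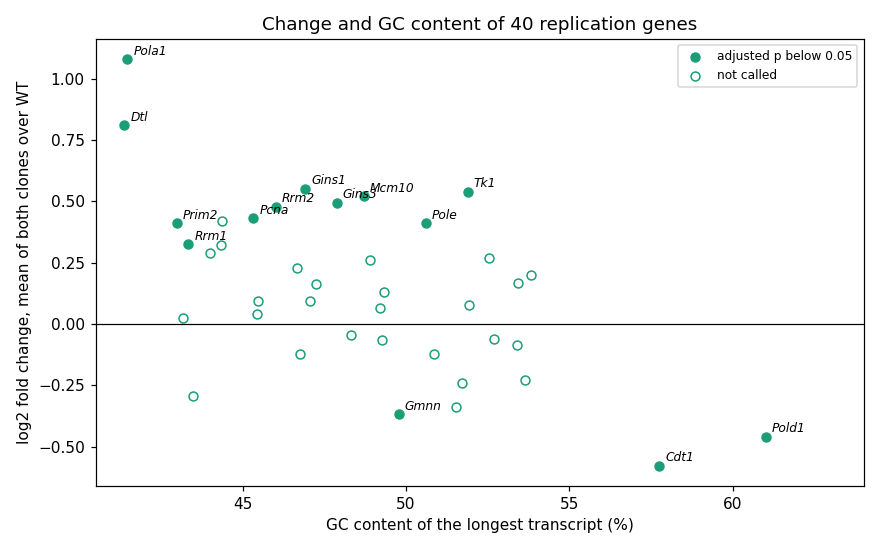
Log2 fold change of the knockout mean over WT (vertical axis) against GC content of the longest transcript in percent (horizontal axis) for the 40 genes, with called genes filled and named. Pola1 and Dtl stand at the upper left and Cdt1 and Pold1 at the lower right, with a Pearson correlation of −0.59.

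Promoters were searched for E2F words because that family is known to drive these genes, and 6 are shown to set genes that rose or fell beside genes that were not called. The sequences are RefSeq's (GRCm38.p6), 5′ to 3′ on the strand of the gene, in capitals where they hold an E2F word (TTTGGCGC, TTTCCCGC, TTTGCCGC or TTTCGCGC on either strand) or a CCAAT box (CCAAT, or ATTGG on the other strand). Pola1, Dtl and Mcm10 rose, Mcm5 and Mcm6 were not called, and Cdt1 fell. The Cdt1 stretch lies inside the transcript, from 25 to 48 bases counted from its first base, and the others end at the base before the start site.
Pola1, chrX:93632156-93632315, minus strand: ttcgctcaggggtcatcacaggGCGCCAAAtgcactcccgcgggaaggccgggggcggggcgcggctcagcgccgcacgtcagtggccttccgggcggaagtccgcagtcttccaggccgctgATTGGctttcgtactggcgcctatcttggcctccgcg
Dtl, chr1:191575545-191575634, minus strand: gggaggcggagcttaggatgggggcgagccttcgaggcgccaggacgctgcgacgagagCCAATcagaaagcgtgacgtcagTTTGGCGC
Mcm10, chr2:5012792-5012951, minus strand: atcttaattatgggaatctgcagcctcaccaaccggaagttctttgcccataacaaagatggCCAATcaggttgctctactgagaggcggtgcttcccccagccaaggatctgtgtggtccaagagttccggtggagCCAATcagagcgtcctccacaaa
Mcm5, chr8:75109349-75109508, plus strand: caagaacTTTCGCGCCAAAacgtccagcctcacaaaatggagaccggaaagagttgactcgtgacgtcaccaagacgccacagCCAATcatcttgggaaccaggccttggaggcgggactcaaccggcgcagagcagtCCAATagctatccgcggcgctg
Mcm6, chr1:128359706-128359865, minus strand: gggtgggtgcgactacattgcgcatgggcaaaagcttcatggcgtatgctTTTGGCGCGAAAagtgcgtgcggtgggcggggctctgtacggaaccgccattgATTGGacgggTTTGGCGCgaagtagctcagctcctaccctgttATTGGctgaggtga
Cdt1, chr8:122568039-122568062, plus strand: actaccttTTTGGCGCcatggcgc

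E2F words were common in the list whether or not a gene was called. Of 33 members with a promoter in the table, 12 (36.4%) held an E2F word in the 300 bases from 250 before to 50 after the start site, beside 4.39% of the promoters of 8939 genes tested. They were in 3 of 8 promoters of genes that rose, in 2 of 2 of genes that fell (Cdt1 and Pold1) and in 7 of 23 of genes not called. In Mcm5 and Mcm6, 2 words overlap in opposite orientation, and Mcm10, called in each clone, held 0. The CCAAT box stood in 22 of 33 (66.7%, beside 40% of genes tested) and in all 8 helicase promoters read. The CHR words TTTGAA and TTCGAA, known from G2/M genes, stood in 6 of 33 (18.2%, beside 13.6%). A match is a description of letters, not a site in use.

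Of 68 further genes of the pathway, 67 were tested, and 14 rose and 3 fell in the knockout mean (20.9% and 4.48%, beside 16.6% and 18.2% of all genes). The largest rises were those of Hells, a chromatin remodeller, by 1.19 ± 0.19 (adjusted p = 3.15e-04), of Atad5, which takes PCNA off DNA, by 1.18 ± 0.24 (adjusted p = 0.00201), and of Rfc1, the large clamp loader subunit, by 0.96 ± 0.20 (adjusted p = 0.00207). Hells had 25.6 and 38.0 CPM in clone 1 beside 38.2 and 44.7 CPM in clone 2, against 13.8 and 17.1 CPM in WT. Correction for GC content and length brought Hells to 0.73 (adjusted p = 0.00197). Among the falls were those of E2f2 by 1.05 ± 0.20 (adjusted p = 0.00118) and of Dguok, the mitochondrial deoxyguanosine kinase gene, by 0.54 ± 0.14 (adjusted p = 0.00987, and 0.113 with the knockout libraries as a single group).

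E2f2 encodes an activator of the E2F family and had 4.49 and 4.27 CPM in clone 1 beside 4.01 and 4.69 CPM in clone 2, against 10.6 and 8.20 CPM in WT. Of the 17 E2F, RB and cyclin genes tested, 3 rose (17.6%, beside 16.6% of all genes) and 1, E2f2, fell (5.88%, beside 18.2%). The share that rose was thus near that of all genes. The rises, named after their values were seen, were those of Rbl1, which encodes the pocket protein p107, by 0.72 ± 0.16 (adjusted p = 0.00391), of E2f5 by 0.53 ± 0.17 (adjusted p = 0.0252) and of the cyclin A2 gene Ccna2 by 0.45 ± 0.11 (adjusted p = 0.00628). Correction for GC content and length brought Rbl1 to 0.42 (adjusted p = 0.0210), and E2f5 missed the threshold with replicate 1 of WT left out (0.39, adjusted p = 0.127) or without replicate 1 or 2 of clone 2 (0.55 and 0.53, adjusted p = 0.0554 and 0.0598). Neither E2f1 (0.10 ± 0.15) nor the cyclin E1 gene Ccne1 (0.04 ± 0.13) was called, and in both the WT libraries lay as far apart as 79.8 and 53.2 CPM for E2f1 and 92.8 and 67.1 CPM for Ccne1. E2f1 was called higher once GC content and length were corrected for (0.39, adjusted p = 0.0164) and without WT replicate 1 (0.39, adjusted p = 0.0332), and had −0.18 without WT replicate 2. Of the 6 further polymerase subunit genes, 0 were called by edgeR in the mean, and 1 had an unadjusted p below 0.05. E2f6 had 0 counts in every library. Reads that lie in several genes are left out of the counts, so that a count of 0 sets no upper limit on its level. Whether this holds for E2f6 was not tested.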

How the data were processed

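Per the submitters' processing notes, reads were viewed with FastQC and aligned with STAR 2.6.0c to GRCm38; no source used here gives the gene models behind the counting. The files were deposited as unnormalised counts of reads for each gene; the counts on the reverse strand were taken, because the kit in the labels is stranded. Summary rows (unmapped, multimapped, ambiguous or outside genes) took 46.6% to 50.5% of reads and were left out. Symbols, positions and lengths came from GENCODE M21 (54079 of 54146 identifiers matched). The per-kb level divides CPM by the longest APPRIS principal transcript.

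Genes were kept by filterByExpr (minimum count 10), scaled by TMM (factors 0.951 to 1.03) and fitted with edgeR 4.0.16 in R 4.3.3 as 3 groups over 6 libraries (3 residual degrees of freedom); DESeq2 1.42.0 and limma 3.58.1 (voom) were alternatives. CPM values were computed from the deposited counts and the TMM-scaled library totals. Replicates differed by more than sampling noise (chi-square per degree of freedom 13.6 to 22.2). Alternatives changed the scaling, filter, strand, depth, tool, grouping, replicate block and GC correction, or left out a library. Full values are given for genes called in each clone and for Pcna, Mcm2, Cdc6, Cdt1, Gmnn, Pola1, Rrm2 and Ung; of the further pathway genes, the 3 largest rises, the falls, E2f1 and Ccne1 are named, except 1 gene that is not reported here. Other values were chosen after they were seen. The members and lists were chosen with earlier results of these data known.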

Additional observations from a re-analysis of the deposited data

Results flagged for a closer look

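Dguok, a mitochondrial nucleotide kinase gene of the wider list, differed between the clones. It had 18.1 and 20.7 CPM in clone 2, against 12.7 and 12.1 CPM in clone 1, with 22.8 and 22.4 CPM in WT. The difference of clone 2 from clone 1 was 0.64 ± 0.16 on the log2 scale (edgeR adjusted p = 0.0357), and it was the only call among the 67 further genes tested in that comparison. It was lost without either library of clone 1 or of clone 2, at 0.53 to 0.73 (adjusted p = 0.143 to 0.455), with DESeq2 (0.64, adjusted p = 0.0627) and in libraries thinned to the shallowest (0.13, adjusted p = 0.898).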

How the results depend on the processing

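Of the 14 genes called in the knockout mean, 5 (Pola1, Dtl, Mcm10, Tk1 and Cdt1) kept the call under all 17 alternatives, and 0 of the 14 changed sign. With a library left out, 5 to 13 genes rose and 2 to 4 fell in the knockout mean, 7 to 12 rose and 0 to 4 fell in clone 1, 2 to 7 rose and 0 to 3 fell in clone 2, and 0 rose and 0 to 1 fell between clones. In the fits that left out a library the shares of all genes called moved too, as those given in Results for some of them show. The ranges thus include shifts common to all genes and do not measure instability of this list alone. In clone 1, 15 rose with library totals (beside 17.6% of all genes in that fit), 16 without a low-count filter (10.3%) and 13 after correction for GC content and length (16.9%). In clone 2, 10 rose with library totals (15.2%) and 3 in thinned libraries (12.1%). Between clones 1 gene, Rrm2, was lower with DESeq2, limma-voom, no low-count filter, correction for GC content and length, and the replicate block. Whether the replicate numbers pair the libraries is not settled. Deviations of same-numbered replicates correlated at 0.27 (WT and clone 1), −0.09 (WT and clone 2) and −0.11 (clone 1 and clone 2). With the replicate block, 12 rose and 4 fell in the knockout mean (beside 18.6% and 18.5% of all genes). The counts were 8 and 3 in clone 1 (beside 17% and 16.9%), and 6 and 1 in clone 2 (beside 15.3% and 14.9%). Uncalled genes near 0 changed sign: Cdc6 (−0.12 without WT replicate 2, 0.24 without WT replicate 1), E2f1 (−0.18, 0.39) and Ccne1 (−0.19 without WT replicate 2), Ccne1 also in thinned libraries (−0.0064) and without clone 1 replicate 1 (−0.015), and Ung with library totals (0.035), without a low-count filter (0.0063) and without WT replicate 1 (0.11; −0.23 without WT replicate 2). The cause was not tested. The lowest counts in any library were those of Gins3 (32), Pola1 (55), Gins1 (66) and Dtl (72).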
